A study of Homo sapiens and Mus musculus with 30 samples.

Results

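The genes described here are 34 genes of the amino acid stress response that runs through the transcription factor ATF4. They were chosen by name, with earlier results of these data known. In order of role they are 8 transcription factors and regulators, 8 stress effectors, 7 enzymes of serine and one-carbon metabolism, 6 other enzymes of amino acid synthesis and 5 amino acid transporters. The human polysome table of 11342 genes lists 31 of the 34 and lacks CHAC1, JDP2 and NUPR1. The table of the let-7a libraries (57820 genes) and the mouse table (41128 genes) list all 34, and 31 of the mouse genes passed the filter on low values.

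When amino acids run short or unfolded protein builds up in the endoplasmic reticulum, kinases phosphorylate the initiation factor eIF2. Translation of most messages then slows, while that of ATF4, whose 5′ leader carries upstream reading frames, goes up. ATF4 pairs with C/EBP proteins on target promoters and switches on asparagine and serine synthesis, amino acid import and, under long stress, the regulators DDIT3 (CHOP) and TRIB3. Untransfected proliferating lines keep part of this programme on, since it also supplies amino acids for growth.

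Total RNA and polysome RNA (the RNA that sediments with ribosomes) were sequenced from the human line HEK293A, derived from embryonic kidney, and from the mouse fibroblast line NIH3T3. LIN28B keeps let-7 microRNAs from maturing and binds many messages, and each line was set at 5 steps of it, from X0 (lowest) to X4 (highest), with 1 library per step and fraction. X0 is taken as the LIN28B knockout in HEK293A, because the small RNA titles set a knockout beside X3; the NIH3T3 titles name no knockout. HEK293A X0 cells that received mature let-7a gave 1 further library of each fraction. Per the labels' protocols all cells grew in 10% FBS, 10 ng/ml of doxycycline turned the LIN28B transgenes on, and Lipofectamine RNAiMAX carried let-7a into the cells at 10 nM. The labels name neither the clones nor a mock transfection. The let-7a difference is therefore against untransfected X0, so that let-7a and the transfection itself cannot be told apart. No step had a replicate of its own, and p-values reflect only how single libraries scatter around a fitted line, a scatter that may be technical.

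The molecule that was transfected is shown first, with its seed (bases 2 to 8) in capitals, because the let-7a comparison gave the largest differences of these genes. The mature sequence is from RefSeq, and the copy shown lies at chr9:94175962-94175983 (+) in GRCh38.p14.
hsa-let-7a-5p: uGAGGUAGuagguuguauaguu

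Promoters are shown next, because a site for ATF4 is known in promoters of this response. ATF4 and its C/EBP partners bind a composite element whose core reads TGATGNAA. This core was searched on both strands from 250 bases before to 50 bases after each start site in the RefSeq promoter set (GRCh38.p14). A promoter was found for 26 of the 34 genes, and 9 of the 26 (34.6%) hold the core, against 4.46% of 27305 gene symbols. NUPR1, VEGFA, PSPH, SHMT2, ALDH1L2, PYCR1, GPT2 and SLC7A11 had no entry in the set. By role the core was found in 3 of 7 promoters of transcription factors, 1 of 7 of stress effectors, 1 of 4 of serine and one-carbon enzymes, 1 of 4 of other enzymes and 3 of 4 of transporters. A match describes letters in a window and is no evidence of binding. The genes were chosen by name for this response, so their share is a description and no test. The windows of 7 genes follow, 30 bases each, read on the gene's strand, with the core in capitals and its first base given relative to the start site. CHAC1 carries the core on the opposite strand. SLC3A2 and SLC7A1 hold it past the start site and are not printed.
ATF3, chr1:212565205-212565234 (+), -191: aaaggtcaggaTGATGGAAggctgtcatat
CEBPG, chr19:33374060-33374089 (+), -42: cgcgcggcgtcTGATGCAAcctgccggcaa
JDP2, chr14:75427995-75428024 (+), -16: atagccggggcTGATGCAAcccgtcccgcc
CHAC1, chr15:40953251-40953280 (+), -209: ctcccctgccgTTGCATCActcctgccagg
MTHFD1L, chr6:150866346-150866375 (+), -129: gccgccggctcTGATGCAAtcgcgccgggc
ASNS, chr7:97872458-97872487 (-), -68: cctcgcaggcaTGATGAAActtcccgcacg
SLC1A5, chr19:46784893-46784922 (-), -97: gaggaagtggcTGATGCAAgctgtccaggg
CEBPG, JDP2, MTHFD1L and SLC1A5, and CHAC1 on its opposite strand, share the core TGATGCAA, while ASNS and ATF3 differ from it only in the free base.

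Recovered reads, that is reads worked back from the RPKM steps, numbered 37.7 to 56.0 M (mega) reads in HEK293A total RNA and 9.09 to 14.6 M in polysome RNA. The let-7a libraries held 35.1 M and 7.39 M, and the NIH3T3 libraries 16.1 to 25.0 M and 15.9 to 20.8 M. LIN28B total RNA in HEK293A was 3.60, 23.0, 33.4, 81.2 and 208 RPKM from X0 to X4, in the order of the labels, and 1.41 RPKM in the let-7a library. In NIH3T3 total RNA mouse Lin28b was 0.0074, 0.0107, 0.0115, 0.0834 and 0.354 RPKM from X0 to X4, also in the order of the labels. These levels are very low, and whether they reflect a human transgene was not tested. Of 6 markers listed for HEK293A, KRT8, KRT18, VIM and CDH2 were expressed, whereas PAX2 and NEFM have no row in the human table of genes at 1 RPKM or more and stood at 0.045 and 0.051 RPKM in the let-7a total library. NIH3T3 expressed all 6 fibroblast markers, and the summed level of 5 markers of other cells was 0.1 RPKM in each total library. These are bulk libraries, in which fewer cells of a kind and less RNA per cell cannot be told apart. Some libraries stand apart. The SD over all genes of the log2 difference from X0 in HEK293A polysome RNA was 0.40 and 0.35 for X1 and X2, but 0.62 for X3 and 0.88 for X4. In total RNA it was 0.15 to 0.25 over X1 to X4 and 0.46 for let-7a.

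In HEK293A total RNA most of these genes kept nearly the same level from X0 to X4. Asparagine synthetase (ASNS), the cystine importer SLC7A11 and the mTOR inhibitor DDIT4 fell with LIN28B, and the pseudokinase TRIB3, which restrains ATF4 signalling, rose. That is 3 of 31 genes down (background 0.758% of 11342 genes) and 1 of 31 up (background 1.48%). The test was limma's straight line over the rank of the step, on log2(RPKM + 0.5), with Benjamini-Hochberg adjustment over all genes and a threshold of 0.05. The median slope of the 31 was -0.05 per step, and over all genes it was 0.00.

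ASNS total RNA was 33.9, 24.8, 22.9, 20.1 and 19.4 RPKM at X0, X1, X2, X3 and X4, a slope of -0.19 ± 0.03 (SE) per step (adjusted p = 0.0207). SLC7A11 was low throughout, at 3.30, 2.20, 2.01, 1.58 and 1.65 RPKM (slope -0.20 ± 0.04, adjusted p = 0.0347). X0 was the highest library for both, and the largest single drop lay between X0 and X1. DDIT4 went from 9.19 RPKM at X0 to 4.59, 4.19, 3.73 and 3.33 (slope -0.29 ± 0.06, adjusted p = 0.0365), and among the 31 genes it alone had an X0 value over 1.5 times every other step (background 0.15%). TRIB3 was 8.38, 8.71, 8.97, 10.4 and 13.0 RPKM (slope 0.15 ± 0.03, adjusted p = 0.0374), with X4 highest. With 4 libraries left in the limma fit, 0 of 31 genes passed in either direction without X0 (backgrounds 0.0265% up and 0.0% down) or without X3 (0.758% and 0.291%). Slopes without X3 were -0.18 for ASNS, -0.19 for SLC7A11, -0.29 for DDIT4 and 0.15 for TRIB3, close to those of all 5 steps (adjusted p = 0.0598, 0.0772, 0.0859 and 0.0625). Without X0 they were -0.12, -0.13 and -0.14 for ASNS, SLC7A11 and DDIT4, nearer to 0, and 0.19 for TRIB3 (adjusted p = 0.207, 0.291, 0.207 and 0.155). The limma counts over all genes at unadjusted p under 0.05 were 737 up and 688 down without X0, and 1675 and 1183 without X3; edgeR on all 5 steps called 1 of the 31 up and 5 down (backgrounds 1.56% and 0.882%). After each library was centred on its trimmed mean only ASNS (adjusted p = 0.0341) and SLC7A11 (0.0471) passed, both down (backgrounds 0.97% up and 0.564% down).

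ATF4 itself did not pass. Its total RNA was 144, 128, 124, 123 and 116 RPKM, highest at X0 and lowest at X4 (slope -0.07 ± 0.02, adjusted p = 0.109). ATF5, a close relative of ATF4 that is also translated under stress, was 20.2, 21.1, 22.4, 26.6 and 26.0 RPKM (slope 0.10 ± 0.02, adjusted p = 0.052). It passed as a rise when X4 was left out (adjusted p = 0.0376). DDIT3, the CHOP factor that promotes cell death in long stress, lay between 9.14 and 10.9 RPKM. Of the serine enzymes, PSAT1, the phosphoserine aminotransferase, was 89.8, 76.4, 76.7, 68.6 and 67.6 RPKM (slope -0.10 ± 0.02, adjusted p = 0.0556). PHGDH, the first enzyme of serine synthesis, was 64.7, 51.9, 49.1, 50.8 and 46.9 RPKM (slope -0.09 ± 0.03, adjusted p = 0.109). Slopes were below 0 for 6 of 7 serine and one-carbon enzymes, 5 of 6 other enzymes, 4 of 5 transporters and 2 of 6 transcription factors. Among stress effectors they were below 0 for DDIT4, PPP1R15A, STC2, VEGFA and VLDLR and above 0 for TRIB3 and SESN2. Most of these slopes did not pass, and the median slope over all genes was 0.00. The share of all genes below 0 is not given, and differences between roles were not tested. X0 was the highest of the 5 total libraries for 17 of the 31 genes (background 22.8%).

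**Figure D1:**
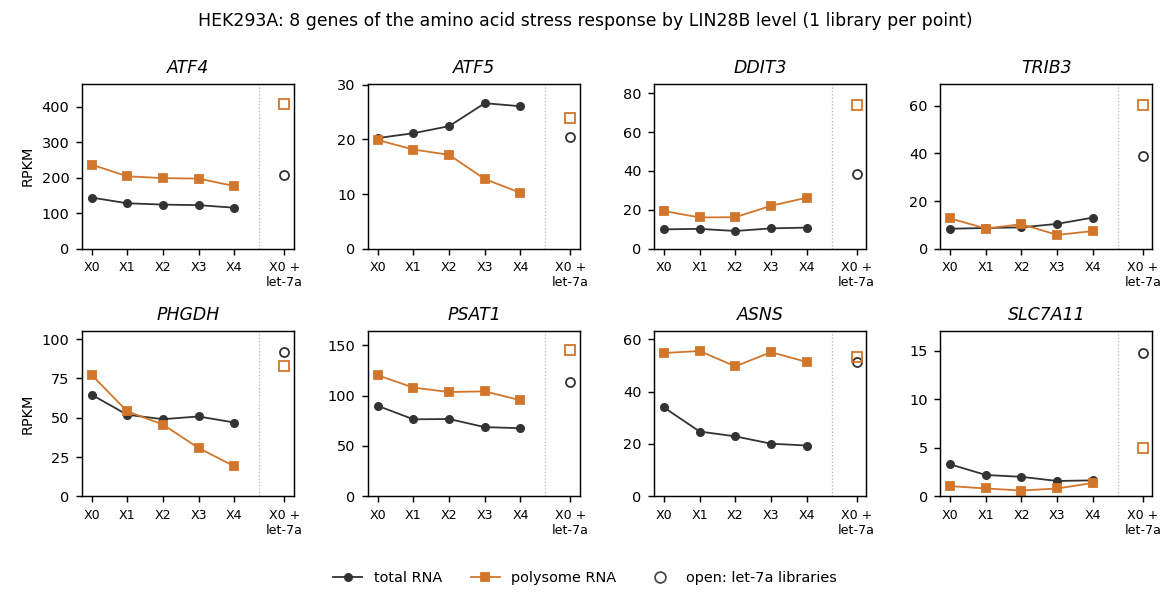
RPKM of 8 genes in HEK293A at LIN28B steps X0 to X4 (filled symbols joined by lines) and in X0 cells with let-7a (open symbols), in total RNA (dark circles) and polysome RNA (orange squares), 1 library per point and a vertical axis from 0. PHGDH and ATF5 lose polysome RNA over the steps, ASNS keeps polysome RNA near 50 to 55 RPKM while total RNA drops, and the let-7a points of DDIT3, TRIB3 and SLC7A11 lie far above every untransfected library.

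Ribosome occupancy, the log2 of polysome over total RNA, changed in far more genes. Of 31 genes, 20 fell with LIN28B (64.5%, against a background of 39.0% of 11125 genes) and 2 rose (background 19.1%). The median slope was -0.21 per step, beside -0.07 over all genes. The 2 that rose, ASNS and SLC7A11, were among the genes whose total RNA fell. By role, 2 of 6 transcription factors, 6 of 7 stress effectors, 4 of 7 serine and one-carbon enzymes, 4 of 6 other enzymes and 4 of 5 transporters fell. After centring, 16 fell and 4 rose (backgrounds 27.6% and 28.3%). Without X4 0 of 31 genes, and 0.0% of all genes, passed in either direction in limma, with 1371 up and 3121 down at unadjusted p under 0.05 over all genes. Slopes were then -0.31 for PHGDH and -0.39 for TRIB3 (adjusted p = 0.0842 for both). Without X0 11 fell and 1 rose (backgrounds 13.8% and 1.49%). EdgeR on all 5 steps called 17 down and 4 up (backgrounds 28.8% and 29.6%).

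Among the serine and one-carbon enzymes some fell in occupancy, as did 39.0% of all genes, and others did not pass. Differences between enzymes were not tested. The ratio of polysome to total RPKM of PHGDH was 1.19, 1.04, 0.931, 0.605 and 0.407 from X0 to X4, and its slope was -0.38 ± 0.06 (adjusted p = 0.00319). Polysome RNA of PHGDH was 77.3, 54.0, 45.7, 30.7 and 19.1 RPKM, each step below the one before. PSAT1, which acts right after PHGDH, showed ratios of 1.34, 1.41, 1.35, 1.52 and 1.41 with no such order (slope 0.03 ± 0.05, adjusted p = 0.684). PSPH, the last enzyme of the chain, fell by 0.21 per step (adjusted p = 0.00994). SHMT2, the mitochondrial enzyme that turns serine into glycine and one-carbon units, had ratios of 1.04, 0.949, 0.807, 0.564 and 0.407 and fell by 0.34 (adjusted p = 0.00319). MTHFD1L, which makes formate in mitochondria, fell by 0.26 (adjusted p = 0.00468; polysome RNA 16.0, 12.7, 11.2, 9.48 and 5.50 RPKM). MTHFD2, next to SHMT2 in the same mitochondrial route, had ratios of 1.39, 1.57, 1.57, 1.86 and 1.85, a slope of 0.11 ± 0.05 that did not pass (adjusted p = 0.0878) and did pass after centring.

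Among the transporters SLC7A5 (LAT1), the importer of large neutral amino acids, was the most abundant of the 31 genes. Its total RNA was 882, 864, 915, 917 and 647 RPKM and its polysome RNA 801, 636, 645, 362 and 220.5 RPKM. Both fractions were lowest at X4, and occupancy fell by 0.37 per step (adjusted p = 0.00319). SLC3A2, the heavy chain that holds SLC7A5 and SLC7A11 at the membrane, had polysome RNA of 298, 223, 258, 175 and 104 RPKM and fell by 0.29 (adjusted p = 0.00392). SLC1A5, a glutamine importer, went from 228 to 174, 209.7, 135 and 92.9 RPKM in polysome RNA and also fell by 0.29 (adjusted p = 0.00456). The arginine and lysine importer SLC7A1 fell by 0.22 (adjusted p = 0.00552). SLC7A11 went the other way: its ratio was 0.320, 0.369, 0.299, 0.512 and 0.837, and its slope 0.26 ± 0.06 (adjusted p = 0.00665). Its polysome RNA was only 0.60 to 1.38 RPKM, and it was left out by a filter of 5 RPKM.

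ASNS occupancy rose by 0.17 per step (adjusted p = 0.019), with ratios of 1.61, 2.24, 2.17, 2.74 and 2.65. Polysome RNA of ASNS lay within 49.6 to 55.5 RPKM at all 5 steps, so that the ratio moved as total RNA went down. CBS, which starts the route from homocysteine to cysteine, had the steepest fall of the 31, at -0.39 ± 0.06 (adjusted p = 0.00319), with polysome RNA of 16.2, 11.1, 10.2, 6.30 and 3.69 RPKM. CTH, the next enzyme of that route, had a slope of -0.04 ± 0.06 (adjusted p = 0.572). GPT2, a mitochondrial alanine transaminase, fell by 0.32 (adjusted p = 0.00334; polysome RNA 15, 9.73, 10.1, 5.91 and 3.95 RPKM). The proline enzymes PYCR1 and ALDH18A1 fell by 0.21 and 0.18 (adjusted p = 0.0142 and 0.0166).

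Of the transcription factors, ATF4 had nearly the same ratio at every step (1.64, 1.59, 1.60, 1.61 and 1.53; slope -0.02 ± 0.05, adjusted p = 0.743), and after centring its slope was 0.04. ATF5 fell by 0.34 (adjusted p = 0.00319) with ratios of 0.982, 0.859, 0.766, 0.479 and 0.393. ATF4 and ATF5 both carry upstream reading frames, and their ratios at X4 differed from X0 by little and by more than 2-fold. CEBPB, a dimer partner of ATF4, fell by 0.31 (adjusted p = 0.00864). DDIT3 was at 1.95, 1.57, 1.78, 2.11 and 2.41 (slope 0.10 ± 0.06, adjusted p = 0.142). The stress effectors that fell were TRIB3 (0.35 per step, adjusted p = 0.00409), the leucine sensor SESN2 (0.31, adjusted p = 0.00508), PPP1R15A (0.29, adjusted p = 0.0047), which directs the phosphatase that reverses eIF2 phosphorylation, STC2, VEGFA and DDIT4. TRIB3 polysome RNA was 12.7, 8.47, 10.3, 5.81 and 7.41 RPKM, opposite in direction to its total RNA. SESN2 polysome RNA was 15.4, 11.1, 12.9, 7.23 and 6.61 RPKM, and that of PPP1R15A was 14.4, 11.5, 10.6, 6.4 and 5.91 RPKM. For both genes X3 and X4 were the lowest libraries, below all of X0, X1 and X2.

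**Figure D2:**
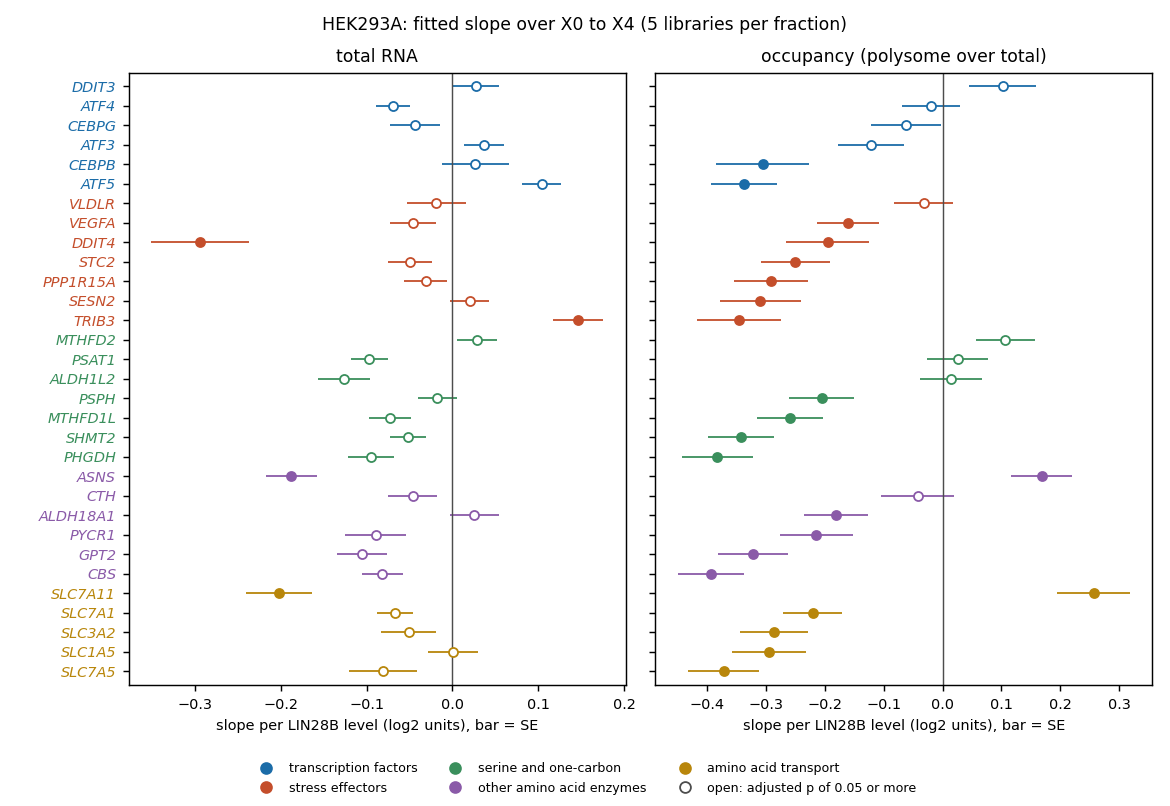
Fitted slope per LIN28B step in log2 units with its SE for 31 genes in HEK293A, total RNA on the left and occupancy on the right (5 libraries per fraction and gene), with gene names and symbols coloured by role and open symbols for an adjusted p of 0.05 or more. In total RNA 4 genes are filled, and in occupancy 20 are filled below 0 and 2, ASNS and SLC7A11, above 0.

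After let-7a transfection of X0 cells many of these genes were higher in total RNA, the stress effectors most of all. Past 1.5-fold over untransfected X0 there were 14 of 31 genes up and 0 down, where the background is 9.63% up and 8.43% down of 11227 genes. The median difference in log2(RPKM + 0.5) was 0.55 for the 31 and 0.00 over all genes, and 28 of 31 lay above 0. With 1 library on each side there is no test, and the intervals below cover counting error only. Genes and role groups were chosen with earlier results of these data known, so the counts and the order of roles are a description. Past 2-fold there were 9 genes up and 0 down (backgrounds 2.28% and 1.56%). In 26 of 31 genes the let-7a library lay above all 5 untransfected libraries (background 38.2%).

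DDIT4 total RNA was 70.6 RPKM with let-7a, while the 5 untransfected libraries spanned 3.33 to 9.19 RPKM; against X0 this is 7.68-fold (95% counting interval 7.12 to 8.28). TRIB3 was 39.0 RPKM against 8.38 at X0, 4.65-fold (4.34 to 4.99). PPP1R15A was 64.8 against 22 RPKM (2.94-fold), and VEGFA, the angiogenic growth factor, 9.26 against 3.11 RPKM (2.98-fold). In each of these the let-7a library stood clear of all 5 untransfected ones. SESN2 was 41.7 against 18.6 RPKM (2.24-fold) and STC2, a secreted glycoprotein of the stress response, 13.5 against 7.13 RPKM (1.89-fold). VLDLR, the lipoprotein receptor, was the one stress effector short of 1.5-fold (5.03 against 4.15 RPKM). So 6 of 7 stress effectors were past the fold.

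Of the 6 transcription factors, 3 were past 1.5-fold. DDIT3 was 38.4 RPKM with let-7a against 9.97 at X0 (3.85-fold, 3.47 to 4.26), CEBPB 19.1 against 5.71 (3.34-fold, 2.99 to 3.73) and ATF3, an early stress factor, 39.5 against 14.2 (2.78-fold, 2.65 to 2.92). ATF4 was 208 against 144 RPKM, 1.44-fold (1.41 to 1.48), and CEBPG, the main C/EBP partner of ATF4, 35.9 against 25.3 RPKM (1.42-fold). Both lay above every untransfected library. ATF5 was 20.4 against 20.2 RPKM, and the sign of its small log2 difference (0.01) turned after centring. The genes that the human polysome table lacks had only the let-7a values: CHAC1, which degrades glutathione, was at 9.68 RPKM, the small stress regulator NUPR1 at 7.63 RPKM and the ATF3-related factor JDP2 at 2.46 RPKM in total RNA. The human table holds only genes of at least 1 RPKM in all 5 total libraries, so these 3 have no untransfected value here.

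The enzymes and transporters differed less. ALDH1L2, a mitochondrial folate enzyme, was 16.4 against 9.48 RPKM (1.73-fold) and the only 1 of 7 serine and one-carbon enzymes past 1.5-fold. MTHFD2 was at 1.48-fold, PHGDH at 1.42-fold (91.8 against 64.7 RPKM), PSPH at 1.41-fold, PSAT1 at 1.26-fold (113 against 89.8 RPKM), SHMT2 at 1.19-fold and MTHFD1L at 0.91-fold. Thus 6 of the 7 lay above X0. Among other enzymes CBS (25.9 against 14.9 RPKM), GPT2 (27.0 against 15.9 RPKM) and CTH (9.67 against 5.72 RPKM) were past the fold, at 1.73, 1.70 and 1.69. ASNS was 51.1 against 33.9 RPKM, a ratio of 1.51 that falls short on the scale with 0.5 added. ALDH18A1, which starts proline synthesis, was lower with let-7a than in all 5 untransfected libraries (53.9 RPKM against 74.8 to 90.7). SLC7A11 was the only transporter of 5 past the fold, at 14.8 against 3.30 RPKM (4.47-fold, 4.20 to 4.75). SLC7A5, its partner SLC3A2 and SLC1A5 were at 1.22, 0.99 and 1.05-fold. On the log2 scale with 0.5 added, ASNS (0.58) and MTHFD2 (0.55) lie nearest below 1.5-fold, and the lowest values past it are CTH (0.71) and GPT2 (0.74).

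In polysome RNA 17 of 31 genes were up past 1.5-fold and 0 down, against a background of 26.5% up and 15.4% down. DDIT4 was 76.7 against 11.1 RPKM (6.90-fold), PPP1R15A 81.5 against 14.4 RPKM (5.67-fold) and VEGFA 8.89 against 1.53 RPKM (5.82-fold). TRIB3 was 60.2 against 12.7 RPKM (4.72-fold), ATF3 53.5 against 12.6 (4.24-fold) and DDIT3 73.9 against 19.4 (3.81-fold). ATF4 was 408 against 237 RPKM (1.72-fold), above its 1.44-fold in total RNA. Polysome RNA of ASNS was 53.3 against 54.7 RPKM, so that its occupancy was lower. In occupancy 3 genes were up (PPP1R15A, VEGFA and ATF3; background 18.3%) and 3 down (SLC1A5, ASNS and CEBPB; background 6.61%), a share up below that of all genes.

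**Figure D3:**
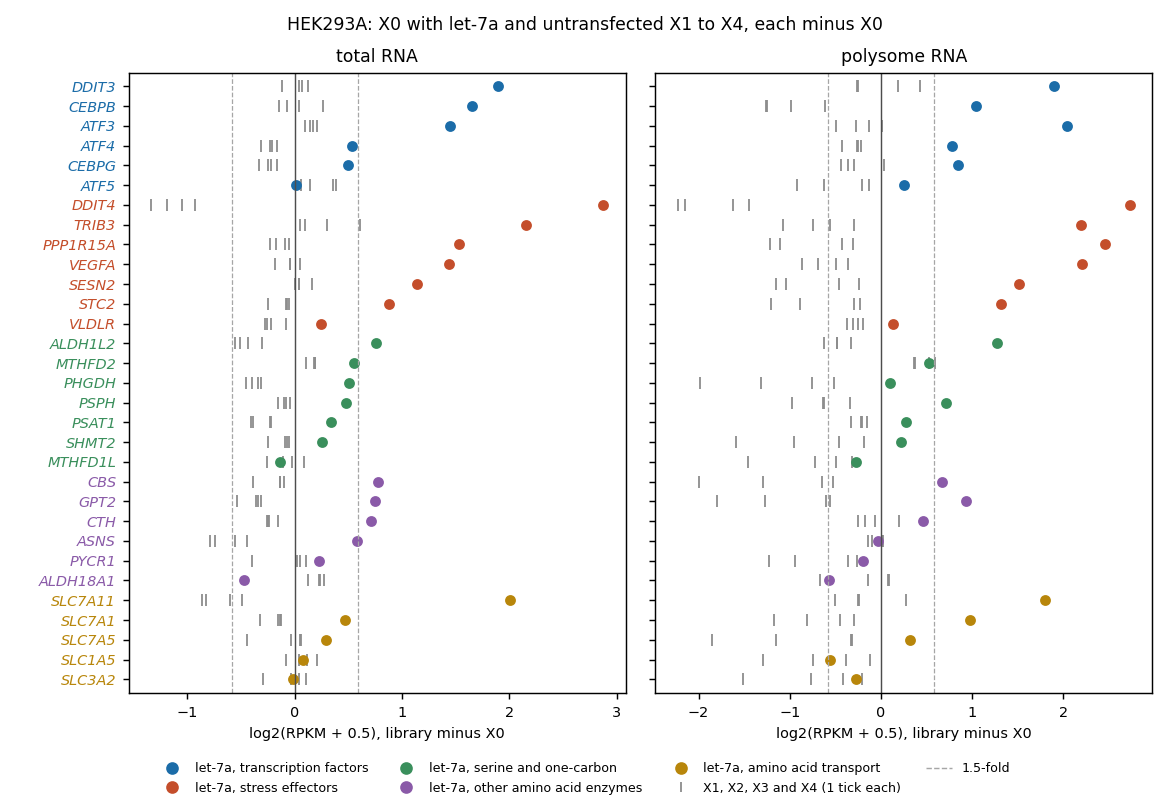
Log2(RPKM + 0.5) of the let-7a library minus untransfected X0 (coloured dots, by role) and of X1, X2, X3 and X4 minus X0 (grey ticks) for 31 genes, total RNA on the left and polysome RNA on the right, with dashed lines at 1.5-fold. The dots of DDIT4, TRIB3, SLC7A11 and DDIT3 lie furthest right in total RNA, and in polysome RNA most ticks lie left of 0 while most dots lie right of it.

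Lists outside the 34 genes give the setting of the let-7a values, read against 9.63% of all genes up and 8.43% down past 1.5-fold in total RNA. Of the 15 listed genes upstream of ATF4 (the eIF2 kinases, eIF2, its exchange factor eIF2B, GCN1L1, IMPACT and PPP1R15B), 0 were up past 1.5-fold in total RNA and 1, EIF2B3, was down. In polysome RNA 5 of the 15 were up and 2 down (backgrounds 26.5% and 15.4%). Of 19 other ATF4 targets 4 were up, namely the glycine transporter SLC6A9 (10.3 against 2.78 RPKM), SLC1A4, the tRNA synthetase CARS and XPOT; the other tRNA synthetases listed were not past the fold. Genes of the parallel endoplasmic reticulum stress branches were up in 4 of 13, led by HERPUD1 (24.4 against 9.30 RPKM) and DNAJB9. Immediate early genes were up in 4 of 7 (JUNB, ZFP36, IER2 and KLF6), hypoxia genes in 1 of 8, and interferon genes in 2 of 5, with ISG15 at 11.8 against 2.75 RPKM. Known let-7 targets were down in 8 of 12, with HMGA2 at 0.74 against 5.87 RPKM. KRT8 and KRT18, keratins of the line, were also lower (18.1 against 47.0 and 23.2 against 48.4 RPKM). How far these other changes bear on the stress genes was not tested. In the small RNA libraries the let-7a features held 5 of 140139 counts (AGO2-bound) and 4 of 73083 (total) in knockout cells with let-7, and 0 in those without, which allows up to 3 counts.

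In the same lists over the LIN28B steps, 0 of 15 upstream genes, 0 of 19 other ATF4 targets and 0 of 13 endoplasmic reticulum stress genes changed in HEK293A total RNA. In occupancy, where 19.1% of all genes rose and 39.0% fell, 5 of 15 upstream genes rose and 5 fell, and 5 of 19 other ATF4 targets rose (NARS, EPRS, LARS and TARS, which are tRNA synthetases, and the transporter SLC38A2) while 9 fell, EIF4EBP1 and SLC43A1 among them.

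In NIH3T3 many of these genes were highest at X0, lowest at X1 or X2 and higher again at X3 and X4, so that a straight line describes them poorly. The limma trend called 0 of 31 genes in total RNA and 0 of 31 in occupancy; over all genes it called 0 (0.0%) too, with 759 up and 377 down at unadjusted p under 0.05 in total RNA and 294 and 258 in occupancy, and edgeR's trend also called 0. The 31 genes had a median occupancy slope of -0.06, beside -0.01 over all genes. X0 was also set against X1 to X4 as one group in total RNA. Only the mean log2 difference is given below, since X0 has no spread of its own. X0 is a single library there, so the contrast cannot be told apart from what is peculiar to that library, in which Vim stood at 2994 RPKM against 1221 to 1498 at the other steps.

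Among the genes lower at X1 to X4 than at X0 were the transcription regulators Ddit3, Atf3 and Nupr1 and the mitochondrial folate enzymes Mthfd2 and Mthfd1l. They are too few to speak for their roles. Aldh1l2 (-1.30), Asns (-0.85) and Trib3 (-0.84) were also lower in mean log2. Ddit3 total RNA was 66.3 RPKM at X0 and 24.3, 26.0, 26.6 and 26.1 from X1 to X4, a mean log2 difference of -1.35. Atf3 was 3.79, 0.928, 0.721, 1.21 and 0.504 RPKM (-1.70). Nupr1 was 17.7, 10.9, 11.1, 12.2 and 12 RPKM (-0.60). In these 3 genes X0 stood above all other steps; the later steps lay close together for Ddit3 and Nupr1 but spread from 0.504 to 1.21 RPKM for Atf3. Mthfd2 was 28.7, 17.0, 15.1, 19.2 and 18.6 RPKM (-0.71) and Mthfd1l 9.47, 4.52, 3.48, 5.87 and 5.58 RPKM (-0.92). Stc2 was higher, at 0.943 RPKM at X0 and 1.90 to 2.15 RPKM at the other steps (0.81). Cebpb was at 116 RPKM at X0 and 150.2 to 228 at the other steps (0.65).

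Other members dipped at X1 and X2 and came back. Asns total RNA was 85.6, 35.5, 39.1, 55.3 and 64.8 RPKM, and Trib3 19.6, 8.80, 8.31, 13.0 and 13.8 RPKM. Phgdh was 85.9, 57.8, 57.4, 81.5 and 89.4 RPKM and Psat1 70.5, 50.1, 48.0, 61.9 and 67.4 RPKM. For Phgdh X4 lay above X0, and for Psat1 just below it, whereas Asns and Trib3 stayed lower. Shmt2 and Slc7a5 dipped likewise, at 48.0, 34.7, 32.1, 47.0 and 54.4 RPKM and at 29.9, 20.0, 21.7, 27.5 and 36.8 RPKM, and both were highest at X4. Slc7a11, at most 0.0404 RPKM in total RNA, Cbs and Vldlr were too low to be tested in this line.

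Counts of this shape were taken after the values had been seen and carry no test. X0 was highest with the lowest value at X1 or X2 in 15 of 31 genes in total RNA (background 27.5%) and in 19 of 31 in polysome RNA (background 16.5%). In polysome RNA 8 of 31 genes had an X0 value over 1.5 times every other step (background 5.0%): Asns, Atf3, Ddit3, Gpt2, Mthfd1l, Mthfd2, Nupr1 and Trib3. In total RNA 4 of 31 did (background 9.07%), a share near the background. Atf4 total RNA was flat at 340.0, 346, 370.2, 342 and 343 RPKM, while its polysome RNA was 376 RPKM at X0 and 211, 233, 262 and 237 from X1 to X4. Atf5 did the same, with total RNA of 195, 183, 183, 190.4 and 171 RPKM and polysome RNA of 171, 88.8, 104, 115 and 118 RPKM. For both genes the polysome library of X0 stood above the other 4, and the occupancy trend did not pass.

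**Figure D4:**
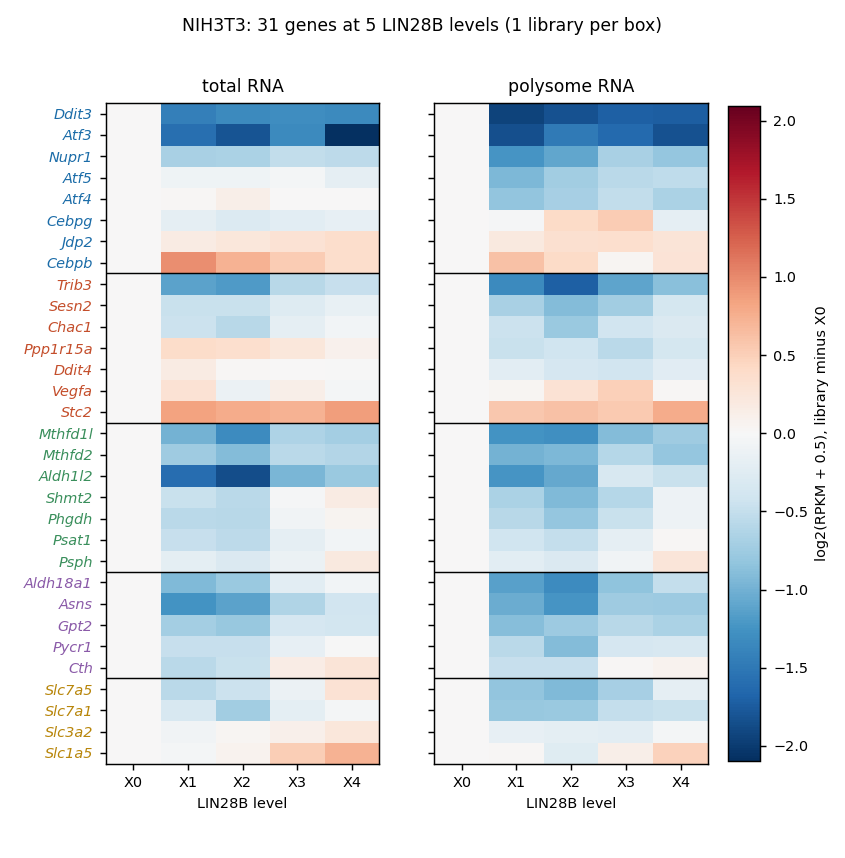
Log2(RPKM + 0.5) minus X0 in NIH3T3 for 31 genes (rows, names coloured by role: blue transcription factors, red stress effectors, green serine and one-carbon, purple other amino acid enzymes, gold transport) at X0 to X4 in total RNA (left) and polysome RNA (right), blue for lower and red for higher than X0, 1 library per box. Ddit3 and Atf3 are blue at every step, most enzymes are darkest at X1 and X2, and Cebpb and Stc2 are red.

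Other lists in NIH3T3 are given as summed total RNA from X0 to X4, in which abundant genes weigh most. The other ATF4 targets summed to 691, 450, 446, 556 and 594 RPKM, with Sars at 157, 93.4, 99.6, 108 and 102 RPKM. Endoplasmic reticulum stress genes summed to 187, 294, 273, 308 and 339 RPKM, with Creld2 at 25.2 RPKM at X0 against 57.4 to 64.3 RPKM. Hypoxia genes summed to 171, 135, 121, 139 and 148 RPKM. Genes upstream of ATF4 summed to 168, 149, 141, 149 and 152 RPKM. These sums were not tested.

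Whether the 2 lines differ was tested as the difference in slope, NIH3T3 minus HEK293A, over genes matched by symbol. Of 28 genes tested 0 passed in total RNA and 0 in occupancy, and over all genes 0 of 6817 (0.0%) and 0 of 7257 (0.0%) passed in limma; at unadjusted p under 0.05 there were 670 up and 439 down in total RNA and 2192 up and 397 down in occupancy. PHGDH occupancy came closest, at a difference of 0.31 ± 0.08 (adjusted p = 0.0524), followed by ASNS at -0.28 ± 0.08 (adjusted p = 0.0587). The difference for PHGDH passed with a pseudocount of 1, and with a filter of 5 RPKM in both lines 7 of 21 genes were up (background 21.6%) and 1, ASNS, was down (background 3.07%). The 2 tables were normalized separately, so only slopes within each were compared.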

How the data were processed

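RPKM values of polysome and total RNA (reads scaled by gene length and library depth) were deposited by the authors, 1 column per step and fraction, with the let-7a libraries in a table of their own. Small RNA counts per gene were deposited by the authors and used only for let-7a. The tools STAR and cutadapt and the builds mm10 and hg19 are listed per the submitters' processing notes. The sources used here give neither the counting tool nor its strand setting. The series design speaks of replicates, and whether columns pool them is not given.

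Reads were recovered from RPKM steps (tolerance 0.02) for 100.0% of genes in both lines and 99.95% and 99.93% in the let-7a libraries. Log2(RPKM + 0.5) values were fitted, for genes averaging 1 RPKM or more, over the step rank with limma 3.58.1 (R 4.3.3), adjusted by Benjamini-Hochberg; edgeR 4.0.16 on recovered reads was an alternative, as were another pseudocount, filter, centring, contrast and each step left out. The let-7a libraries were compared without a test, past 1.5-fold. The methods were tested on simulated data. Members, role groups and lists were chosen with earlier results of these data known. Values in every library are given for 8 fixed genes, members that passed a trend (at most 12 each) and members past 1.5-fold with let-7a; others are given by range or count.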

Additional observations from a re-analysis of the deposited data

Results flagged for a closer look

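For 9 genes in total RNA and 1 in occupancy, X1 to X4 all lay on one side of X0 in HEK293A and all on the other side in NIH3T3. The values below are the mean log2 difference of X1 to X4 from X0, NIH3T3 minus HEK293A. The difference was not tested in this form. As slopes, 0 of 28 genes passed, but 0 of all genes passed too, so that test cannot show that the lines are alike. In both lines X0 is 1 library. The share of all matched genes with such opposite sides is not given, so the pattern cannot be called particular to these genes.

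NIH3T3 was lower for ATF3 (-1.86), TRIB3 (-1.11), MTHFD2 (-0.87), ALDH18A1 (-0.71), SESN2 (-0.40) and ATF5 (-0.34). In HEK293A these 6 stood above X0 at every later step, by a mean of 0.16 for ATF3, 0.26 for TRIB3 and 0.16 for MTHFD2, and in NIH3T3 below it, by -1.70, -0.84 and -0.71. NIH3T3 was higher for STC2 (0.92), PPP1R15A (0.40) and ATF4 (0.28), which lay below X0 in HEK293A and above it in NIH3T3. For ATF4 the NIH3T3 side of this was only 0.04. In occupancy MTHFD2 gave -0.42, from 0.30 in HEK293A and -0.12 in NIH3T3.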

How the results depend on the processing

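In HEK293A total RNA 1 gene rose and 3 fell. The rise was lost (0) after centring and with log2 LIN28B in place of the rank, where 110 and 227 of 11342 genes rose. The falls numbered 7 with log2 LIN28B and 5 with edgeR, beside 125 and 100 over all genes. Leaving out one step gave 0 to 1 rises and 0 to 5 falls, beside 3 to 323 and 0 to 221 over all genes. In HEK293A occupancy (2 rises, 20 falls) there were 1 rise at a filter of 5 RPKM (27 genes), 4 after centring and 4 with edgeR. Over all genes 1747 of 7127, 3144 of 11125 and 3289 of 11125 rose there. Leaving out one step gave 0 to 2 rises and 0 to 20 falls, beside 0 to 2446 and 0 to 4787 over all genes. X0 set against the rest leaves 1 library in a group, so its counts are not read in HEK293A or in NIH3T3. The slope difference in occupancy had 1 gene up at a pseudocount of 1, and 7 up and 1 down at a filter of 5 RPKM. Over all genes 540 of 7257 were up at that pseudocount, and 892 up and 127 down of 4139 at that filter. Leaving out one step gave 0 to 4 up (0 to 887 over all genes), and 0 to 1 up in total RNA (0 to 3 over all genes). With let-7a, 2-fold in place of 1.5-fold left 9 up in total RNA (background 2.28%), 11 in polysome RNA and 0 up and 0 down in occupancy. Against the mean of X0 and X1, polysome RNA had 1 gene down and occupancy 5 up and 1 down, and after centring polysome RNA had 2 down. The shares of all genes for these polysome and occupancy counts are not given. Signs turned for ATF4 occupancy (0.043 centred, 0.056 in edgeR), DDIT3 occupancy (-0.0024 with X0 against the rest) and ATF5 with let-7a (-0.0080 centred, -0.017 against the mean of X0 and X1). The cause was not tested. No paired analysis was possible because the labels carry no replicate numbers and each step has 1 library per fraction. Low polysome RNA limits SLC7A11 and VEGFA, and the let-7a polysome library was the shallowest.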
